A study of Homo sapiens with 6 samples.

Results

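The genes described here supply cells with amino acids or belong to the integrated stress response. They comprise 37 genes in 5 roles: 9 regulators and responders, 7 amino acid carriers, 12 enzymes of amino acid and one-carbon synthesis, 7 cytosolic tRNA synthetases, and a secreted protein with a lipoprotein receptor. Members were found by gene symbol, current or former, in the annotation of the arrays, and the probe set with the highest average level stood for each gene. Of the 37 genes, 35 had a probe set of their own and 34 were bright enough to be tested, among 12012 tested genes of 19775 with a probe set. VLDLR, the lipoprotein receptor, had a mean level below the minimum of 4.42 log2 and was not tested. The probe sets of MARS1 also carry the name of a microRNA gene and were not used, and GPT2 was not analysed here.

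RNA was measured on Affymetrix U133 Plus 2.0 arrays in Namalwa, Raji and Ramos, established lines of Burkitt lymphoma, a tumour of germinal centre B cells with a translocated MYC gene. Each line gave 1 array labelled miR26a, from cells in which miR-26a expression was switched on with doxycycline, and 1 labelled empty. Doxycycline at 0.5 µg/ml for 72 h is listed for both groups, so they share the drug as listed, and the labels do not say what the empty cells carry. The culture medium contained non-essential amino acids, glutamine and β-mercaptoethanol in both groups. No source used here says whether the arrays of a line came from separate cultures, so p-values measure only the spread between these samples.

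In the integrated stress response, kinases that sense amino acid shortage, misfolded protein, viral RNA or lack of haem phosphorylate the translation factor eIF2. Most translation then slows, while the mRNA of ATF4 is translated better. ATF4 pairs with C/EBP proteins on composite DNA elements and switches on carriers that import amino acids, enzymes that make serine, glycine, asparagine, proline and cysteine, and tRNA synthetases that charge tRNAs. MYC raises many of the same genes in lymphoma cells.

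The microRNA that separates the groups has the mature sequence below in RefSeq (GRCh38.p14), with its seed, bases 2 to 8, in capitals. It is encoded at chr3:37969413-37969434 on the plus strand (MIR26A1) and at chr12:57824658-57824679 on the minus strand (MIR26A2). Seed sites in the members were not searched.
hsa-miR-26a-5p: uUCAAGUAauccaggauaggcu

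Promoters were read because ATF4 acts through a short element that can be looked for by its letters. RefSeq windows, from 250 bases before to 50 after each annotated start, were held for 32 of the 37 members, with 52 windows in all since some genes have several starts. None was held for SLC7A11, PSPH, SHMT2, GPT2 or PYCR1. The letters TGATGNAA, the core of the C/EBP-ATF composite element, were searched on both strands. They stood in the windows of 11 of 32 members (34.4%), against 4.46% of 27305 genes with a window, or in 21.2% of member windows against 3.62% of 35116 windows. The E-box CACGTG, the core to which MYC and MAX bind, stood in those of 4 members (12.5%), ALDH18A1, ATF4, SLC1A5 and SLC7A5, against 8.77% of genes. SLC1A5 held both, in windows of different starts, and TGATGNAA and CACGTG did not overlap in any window. A match is a description of letters, not a binding site. Members were listed as genes of the response in which ATF4 acts. Their higher share with its element may reflect that choice and was not tested.

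The stretches with TGATGNAA are shown for the 10 matched members that were tested, each on the strand that reads TGATGNAA, with the match in capitals and up to 10 bases on either side.
AARS1 (chr16:70289676-70289703, plus strand): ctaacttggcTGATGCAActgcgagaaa
ASNS (chr7:97872459-97872486, minus strand): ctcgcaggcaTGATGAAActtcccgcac
ATF3 (chr1:212565206-212565233, plus strand): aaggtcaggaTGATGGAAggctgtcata
CHAC1 (chr15:40953252-40953279, minus strand): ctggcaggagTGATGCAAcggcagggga
GARS1 (chr7:30594835-30594862, minus strand): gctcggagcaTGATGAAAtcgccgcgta
NARS1 (chr18:57621805-57621832, minus strand): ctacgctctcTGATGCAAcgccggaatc
SLC1A4 (chr2:64989382-64989409, minus strand): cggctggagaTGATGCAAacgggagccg
SLC1A5 (chr19:46784894-46784921, minus strand): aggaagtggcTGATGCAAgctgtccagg
SLC38A1 (chr12:46266503-46266530, minus strand): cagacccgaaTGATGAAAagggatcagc
SLC3A2 (chr11:62881726-62881748, minus strand): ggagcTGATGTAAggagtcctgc
The element lay at -68 from the start of ASNS and at -209 from that of CHAC1, counted to its first base along the gene. These genes, chosen after their values were seen, had the lowest changes in Raji of the tested members other than carriers, and their whole windows are shown along the gene, 5′ to 3′, with the element in capitals. In CHAC1 it reads from the other strand.
ASNS (chr7:97872359-97872658, minus strand): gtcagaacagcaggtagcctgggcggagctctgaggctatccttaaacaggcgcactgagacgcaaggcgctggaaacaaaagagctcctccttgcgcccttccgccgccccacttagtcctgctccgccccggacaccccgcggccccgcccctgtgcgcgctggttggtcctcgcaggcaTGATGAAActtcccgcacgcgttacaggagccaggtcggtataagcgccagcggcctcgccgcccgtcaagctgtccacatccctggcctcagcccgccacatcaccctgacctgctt
CHAC1 (chr15:40953221-40953520, plus strand): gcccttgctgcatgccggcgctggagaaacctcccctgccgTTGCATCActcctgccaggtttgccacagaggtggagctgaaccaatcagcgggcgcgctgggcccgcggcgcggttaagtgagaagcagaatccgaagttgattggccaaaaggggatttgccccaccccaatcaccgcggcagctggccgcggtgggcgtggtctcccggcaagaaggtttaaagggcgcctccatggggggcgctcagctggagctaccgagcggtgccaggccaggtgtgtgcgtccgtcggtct
The tested members with TGATGNAA had a median change of -0.33 log2 (10 genes, -0.55 to 0.10), and those with a window but no match one of -0.25 (20 genes, -0.58 to 0.07).

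Array medians were 4.36 to 4.44 log2. Of the B-cell markers, 7 of 7 with a probe set were above the level minimum on all arrays, as were 5 of 5 germinal centre markers. Of the T and NK cell markers 6 of 8 were below it on all arrays (CD3E and CD247 were above on all), as were 5 of 6 monocyte markers and 2 of 5 fibroblast markers, with COL1A1 above on all. The summed log2 levels of these lists covered 58.1 to 66.5 for B-cell, 42.7 to 44.5 for germinal centre, 31.1 to 32.9 for T and NK cell, 19.1 to 22.3 for monocyte and 20.8 to 23.0 for fibroblast markers over the 6 arrays. The Namalwa empty array stood apart in the balance along a control transcript: between the 3′ and the 5′ probe sets of the ACTB control it showed a gap of 3.58 log2, where the remaining arrays had 1.80 to 1.98. In the mean level of the 18S rRNA control probe sets both the Ramos and the Namalwa empty array stood apart. That level was 7.49 on the miR26a array and 8.99 on the empty array of Ramos, 7.72 and 6.68 on those of Namalwa, and 7.71 and 7.54 on those of Raji. EZH2, named in the study's title, was lower by 0.56 log2 on average with miR26a (limma adjusted p = 0.106), and MYC differed by 0.08.

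The amino acid genes were mostly lower on the miR26a array of a line than on its empty array, but no member passed the test. Levels are log2 intensities after RMA normalisation, and a change is the miR26a level minus the empty level of the same line. Of 34 tested members, 25 were lower in Namalwa, 29 in Raji and 29 in Ramos, against 52.3%, 53.0% and 51.4% of all tested genes. In all 3 lines 20 members (58.8%) were lower and 0 were higher, against 19.6% and 15.5% of all genes. The median change over the members was -0.25 log2, against -0.01 over all tested genes, and the medians by line were -0.18 (Namalwa), -0.35 (Raji) and -0.17 (Ramos). Levels were lower by at least 0.25 log2 for 14 members in Namalwa, 23 in Raji and 11 in Ramos, against 17.7%, 14.7% and 12.0% of genes. Without Namalwa, whose empty array stood apart in both controls, the median change was -0.26, and 24 members were lower in both remaining lines, against 30.3% of genes. Without Ramos, whose empty array stood apart in 18S rRNA, the median was -0.29, and 22 members were lower in both, against 29.6% of genes.

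With limma, the line as a block and Benjamini-Hochberg adjustment over all genes, 0 members had an adjusted p under 0.05, against a background of 0.0% of genes. At an unadjusted p under 0.05, 17 members were lower and 0 higher, against 7.33% and 5.56% of genes. SLC7A11, PSAT1 and CTH had an adjusted p under 0.1 and were lower, as were 0.416% of genes, and 0 members were higher at that threshold, where 0.241% of genes were. Without Raji 3 members passed at 0.05, namely SLC7A11 (-0.83), PSAT1 (-0.64) and SLC38A2 (-0.58), where 1.69% of genes passed. That setting keeps Namalwa and Ramos, whose empty arrays stood apart in the controls, and SLC38A2 was 0.09 higher with miR26a in Raji. In bulk RNA such as this, fewer cells of a kind and less RNA per cell cannot be told apart.

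**Figure D1:**
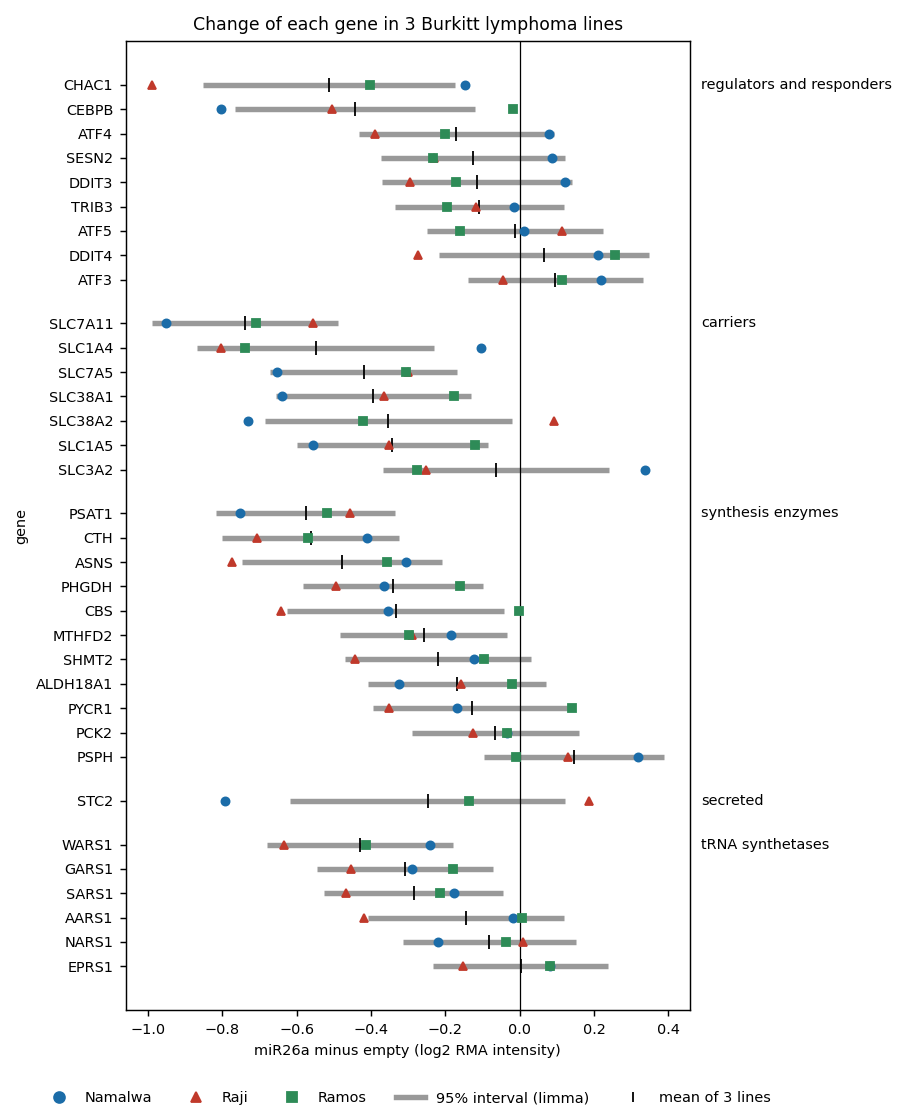
Change in log2 level, miR26a minus empty, of the 34 tested members grouped by role. Symbols give each line, ticks the mean of 3 lines and bars its 95% interval from limma. By their brightest probe sets, the ones plotted, SLC7A11, PSAT1 and CTH lie below -0.4 in every line.

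Among the 7 carriers, 5 were lower in all 3 lines and 6 were lower at an unadjusted p under 0.05, against 19.6% and 7.33% of genes. Their median change was -0.39 log2 (Namalwa -0.64, Raji -0.35, Ramos -0.31). SLC7A11, the subunit of the cystine-glutamate exchanger xCT that carries the substrate, stood first of the members by p. Its level was 4.97 (Namalwa), 7.61 (Raji) and 6.35 (Ramos) with miR26a, against 5.92, 8.17 and 7.06 with empty. The miR26a array was the lower of the pair in each line, while the groups overlapped, with the lines further apart than the groups. Changes of -0.95 (Namalwa), -0.56 (Raji) and -0.71 (Ramos) left 51.7%, 68.0% and 61.1% of the empty level. Its mean change was -0.74 (SE 0.11, 95% interval -0.99 to -0.49, limma adjusted p = 0.073), and -0.36 with the mean of its probe sets.

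SLC7A5, which carries large neutral amino acids such as leucine, had levels of 8.22 (Namalwa), 7.91 (Raji) and 8.90 (Ramos) with miR26a, against 8.87, 8.21 and 9.21 with empty, and a mean change of -0.42 (SE 0.11, 95% interval -0.67 to -0.17, limma adjusted p = 0.156). Its partner SLC3A2, the heavy chain that takes SLC7A5 and SLC7A11 to the cell surface, was at 7.55 (Namalwa), 7.48 (Raji) and 8.04 (Ramos) with miR26a, against 7.21, 7.74 and 8.32 with empty. SLC3A2 was higher with miR26a in Namalwa and lower in the other lines, while SLC7A5 was lower in each.

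SLC1A4, a carrier of alanine, serine and cysteine, was at 6.36 (Namalwa), 5.70 (Raji) and 6.24 (Ramos) with miR26a, against 6.46, 6.50 and 6.98 with empty. All 3 miR26a arrays lay below all 3 empty arrays, as for 4 members in all (11.8%) and 2.91% of genes, while 0 members and 1.61% of genes had the reverse. The mean change was -0.55 (SE 0.14, 95% interval -0.87 to -0.23, limma adjusted p = 0.148), but -0.09 where probe sets designed to match a single gene were preferred. SLC1A5, the glutamine carrier ASCT2, was at 6.73 (Namalwa), 7.84 (Raji) and 7.56 (Ramos) with miR26a, against 7.29, 8.20 and 7.68 with empty. It was lower in every line, most in Namalwa.

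The glutamine and small neutral amino acid carriers SLC38A1 and SLC38A2 depend on sodium. SLC38A1 was at 10.59 (Namalwa), 10.35 (Raji) and 11.05 (Ramos) with miR26a, against 11.23, 10.71 and 11.23 with empty, and lower in each line. SLC38A2 was at 9.60 (Namalwa), 10.05 (Raji) and 9.94 (Ramos) with miR26a, against 10.34, 9.95 and 10.36 with empty, so it was lower in Namalwa and Ramos and 0.09 higher in Raji. Their mean changes were -0.39 and -0.35 (limma adjusted p = 0.195 and 0.351).

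Of the 11 tested synthesis enzymes, 9 were lower in all 3 lines and 6 were lower at an unadjusted p under 0.05, against 19.6% and 7.33% of genes. The median change was -0.26 log2 (Namalwa -0.31, Raji -0.44, Ramos -0.09). PSAT1, the aminotransferase of the serine pathway, was at 9.06 (Namalwa), 9.64 (Raji) and 10.18 (Ramos) with miR26a, against 9.81, 10.10 and 10.70 with empty. The changes were -0.75 (Namalwa), -0.46 (Raji) and -0.52 (Ramos), lower with miR26a in each line. The mean change was -0.58 (SE 0.11, 95% interval -0.82 to -0.34, limma adjusted p = 0.0826). PHGDH, the first enzyme of the same pathway, was at 7.70 (Namalwa), 8.01 (Raji) and 8.43 (Ramos) with miR26a, against 8.06, 8.51 and 8.59 with empty, lower in each line. PSPH, its last enzyme, was at 9.64 (Namalwa), 10.14 (Raji) and 9.70 (Ramos) with miR26a, against 9.32, 10.02 and 9.71 with empty. By its brightest probe set PSPH was the member of the serine pathway that was not lower in Namalwa or Raji. The next, at a mean of 8.51, was lower in Namalwa (-0.39) and higher in Raji (0.19) and Ramos (0.13). The dimmest was higher in each line (0.23, 0.40 and 0.34). A related pseudogene, PSPHP1, could share the signal of PSPH.

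CTH, which splits cystathionine to cysteine, was at 6.76 (Namalwa), 5.29 (Raji) and 7.59 (Ramos) with miR26a, against 7.17, 5.99 and 8.16 with empty. Changes of -0.41 (Namalwa), -0.71 (Raji) and -0.57 (Ramos) gave a mean of -0.56 (SE 0.11, 95% interval -0.80 to -0.32, limma adjusted p = 0.0826). CTH by its dimmer probe set, at a mean of 5.50, changed by 0.16 (Namalwa), -0.25 (Raji) and -0.58 (Ramos). CBS, the step before it, was at 6.91 (Namalwa), 7.22 (Raji) and 7.31 (Ramos) with miR26a, against 7.27, 7.86 and 7.31 with empty. It was lower in Namalwa and Raji and nearly equal in Ramos, where the change was -0.0025.

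ASNS, which makes asparagine from aspartate and glutamine, was at 9.64 (Namalwa), 9.47 (Raji) and 9.90 (Ramos) with miR26a, against 9.95, 10.24 and 10.26 with empty. The groups did not overlap, and the change was largest in Raji, where 58.5% of the empty level was left. Its mean change was -0.48 (SE 0.12, 95% interval -0.75 to -0.21, limma adjusted p = 0.14). SHMT2, the mitochondrial enzyme that makes glycine from serine, was at 9.75 (Namalwa), 9.44 (Raji) and 9.86 (Ramos) with miR26a, against 9.87, 9.89 and 9.96 with empty. Its groups barely missed overlapping, with 9.863 on the Ramos miR26a array and 9.868 on the Namalwa empty array. The mean change was -0.22 (limma adjusted p = 0.451). MTHFD2, a mitochondrial folate enzyme, was at 11.03 (Namalwa), 10.86 (Raji) and 11.33 (Ramos) with miR26a, against 11.21, 11.15 and 11.63 with empty, with changes of -0.19 (Namalwa), -0.29 (Raji) and -0.30 (Ramos).

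ALDH18A1 and PYCR1 act in proline synthesis. ALDH18A1 was at 9.34 (Namalwa), 9.02 (Raji) and 9.88 (Ramos) with miR26a, against 9.66, 9.18 and 9.90 with empty, and PYCR1 at 7.59 (Namalwa), 7.89 (Raji) and 7.90 (Ramos) with miR26a, against 7.76, 8.24 and 7.76 with empty. ALDH18A1 was lower in each line, while PYCR1 was higher with miR26a in Ramos. PCK2, the mitochondrial enzyme that makes phosphoenolpyruvate, was at 8.03 (Namalwa), 7.79 (Raji) and 7.38 (Ramos) with miR26a, against 8.06, 7.91 and 7.42 with empty, and its largest change was -0.13, in Raji.

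Directions varied among the regulators. Of 9, 3 were lower in all 3 lines and 2 were lower at an unadjusted p under 0.05, against 19.6% and 7.33% of genes. The median change was -0.12 log2 (Namalwa 0.08, Raji -0.27, Ramos -0.17). ATF4, the transcription factor at the centre of the response, was at 10.62 (Namalwa), 10.06 (Raji) and 10.99 (Ramos) with miR26a, against 10.54, 10.44 and 11.19 with empty. It was lower in Raji and Ramos and slightly higher in Namalwa, with a mean change of -0.17 (SE 0.12, 95% interval -0.43 to 0.09, limma adjusted p = 0.589). ATF4 is governed largely by translation, which RNA levels do not show.

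CHAC1, a glutathione-degrading enzyme induced by ATF4, was at 5.14 (Namalwa), 5.51 (Raji) and 5.45 (Ramos) with miR26a, against 5.28, 6.50 and 5.85 with empty. The Raji change of -0.99 left 50.3% of the empty level, and the mean change was -0.51 (SE 0.15, 95% interval -0.85 to -0.17, limma adjusted p = 0.193). CEBPB, a partner of ATF4 on DNA, was at 8.11 (Namalwa), 6.47 (Raji) and 8.99 (Ramos) with miR26a, against 8.91, 6.98 and 9.01 with empty. It was lower in Namalwa and Raji and nearly equal in Ramos, with a mean change of -0.44 (SE 0.14, 95% interval -0.77 to -0.12, limma adjusted p = 0.238).

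TRIB3, a pseudokinase that restrains ATF4, was at 7.68 (Namalwa), 6.80 (Raji) and 7.91 (Ramos) with miR26a, against 7.70, 6.92 and 8.10 with empty, a little lower in each line. DDIT3, the factor CHOP, was at 6.64 (Namalwa), 6.54 (Raji) and 7.08 (Ramos) with miR26a, against 6.52, 6.84 and 7.25 with empty. SESN2, a leucine sensor that restrains mTORC1, was at 7.14 (Namalwa), 6.34 (Raji) and 7.58 (Ramos) with miR26a, against 7.05, 6.58 and 7.81 with empty. By their brightest probe sets DDIT3 and SESN2 shared the pattern of ATF4, lower in Raji and Ramos and higher in Namalwa. The dimmer SESN2 probe set, at a mean of 5.88, was lower in each line, by -0.17 (Namalwa), -0.06 (Raji) and -0.23 (Ramos).

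DDIT4, an inhibitor of mTORC1, was at 7.74 (Namalwa), 8.62 (Raji) and 8.57 (Ramos) with miR26a, against 7.53, 8.89 and 8.31 with empty. ATF3, a stress-induced repressor, was at 5.36 (Namalwa), 5.54 (Raji) and 5.36 (Ramos) with miR26a, against 5.14, 5.58 and 5.25 with empty. ATF5, a related factor, was at 7.57 (Namalwa), 5.85 (Raji) and 8.02 (Ramos) with miR26a, against 7.56, 5.74 and 8.18 with empty. By its brightest probe set each of these was lower in a single line, DDIT4 and ATF3 in Raji and ATF5 in Ramos. Other probe sets above the minimum differed, given here for Namalwa, Raji and Ramos in that order. For ATF3 the changes were -0.69, -0.41 and 0.04. For ATF5 the next brightest gave -0.17, -0.41 and -0.08, another 0.22, 0.06 and 0.09, and the dimmest 0.20, -0.23 and 0.11.

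Of the 6 tested tRNA synthetases, 3 were lower in all 3 lines, against 19.6% of genes. The same 3 had an unadjusted p under 0.05, where 7.33% of genes were lower. The median change was -0.21 log2 (Namalwa -0.20, Raji -0.44, Ramos -0.11). WARS1, for tryptophan, was at 8.95 (Namalwa), 8.43 (Raji) and 8.91 (Ramos) with miR26a, against 9.19, 9.07 and 9.32 with empty, and the groups did not overlap. Its mean change was -0.43 (SE 0.11, 95% interval -0.68 to -0.18, limma adjusted p = 0.148). GARS1, for glycine, was at 10.83 (Namalwa), 10.94 (Raji) and 11.25 (Ramos) with miR26a, against 11.12, 11.39 and 11.43 with empty. SARS1, for serine, was at 8.44 (Namalwa), 8.97 (Raji) and 9.12 (Ramos) with miR26a, against 8.62, 9.44 and 9.34 with empty. All 3 were lower in each line and most so in Raji.

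AARS1, for alanine, was at 8.57 (Namalwa), 8.62 (Raji) and 8.83 (Ramos) with miR26a, against 8.59, 9.04 and 8.83 with empty, lower mainly in Raji. NARS1, for asparagine, was at 10.86 (Namalwa), 11.08 (Raji) and 11.14 (Ramos) with miR26a, against 11.08, 11.07 and 11.18 with empty. EPRS1, for glutamate and proline, was at 10.50 (Namalwa), 10.70 (Raji) and 10.88 (Ramos) with miR26a, against 10.42, 10.85 and 10.80 with empty. By their brightest probe sets NARS1 and EPRS1 differed between the groups by at most 0.22 in any line. The next EPRS1 probe set changed by -0.20 (Namalwa), -0.22 (Raji) and -0.04 (Ramos). Its dimmest changed by 0.28 (Namalwa), -0.30 (Raji) and 0.03 (Ramos).

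STC2, a secreted glycoprotein induced by ATF4, was at 5.14 (Namalwa), 3.82 (Raji) and 6.45 (Ramos) with miR26a, against 5.94, 3.63 and 6.58 with empty. In Raji both of its arrays lay under the minimum. VLDLR, which was not tested, was at 4.09 (Namalwa), 2.50 (Raji) and 6.15 (Ramos) with miR26a, against 4.29, 3.01 and 6.15 with empty. Only its Ramos arrays were above the minimum, and there the levels were nearly equal.

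**Figure D2:**
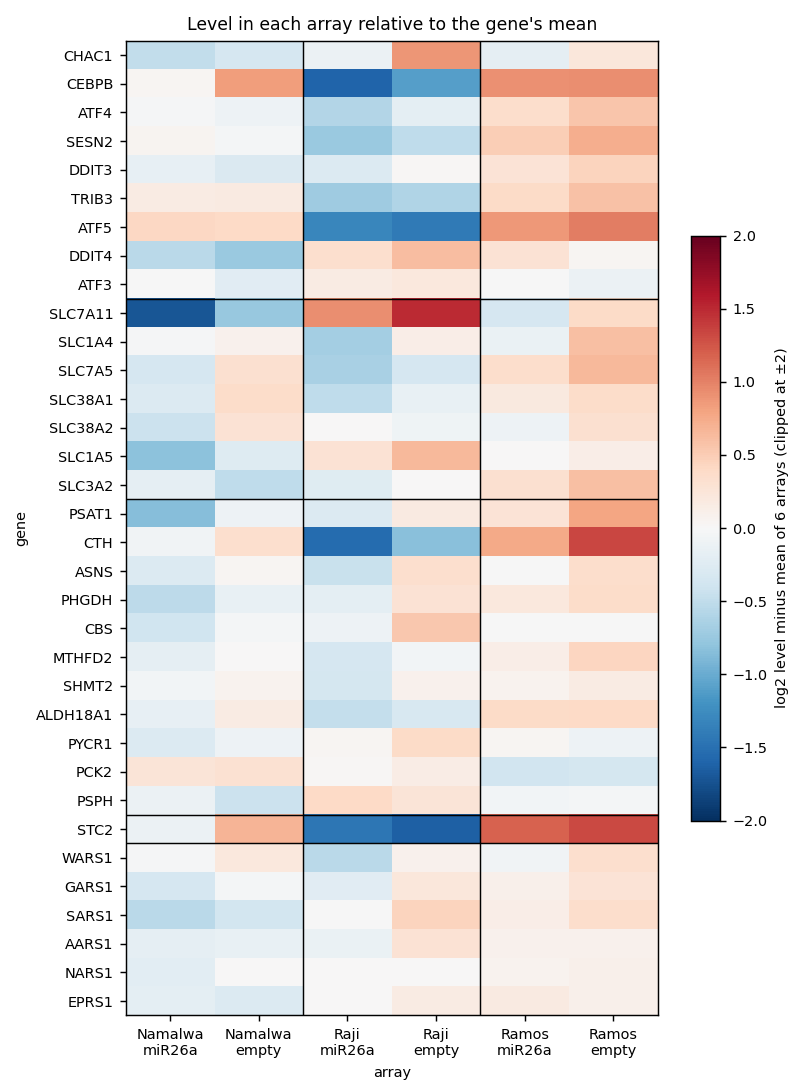
Level of each tested member on each array as a log2 difference from the gene's mean over 6 arrays, by colour, with the miR26a array left of the empty array of a line. STC2, ATF5, CEBPB and CTH are low on both Raji arrays and SLC7A11 is high there.

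Whether the change differed between lines was tested as the change of a line minus the mean of the other lines, with limma, and 0 members passed in any line. The background was 0.0% of genes for Namalwa, 0.208% for Raji and 0.0% for Ramos. At an unadjusted p under 0.05 there were 3 members for Namalwa (SLC3A2, SLC1A4 and STC2), against 6.57% of genes, 4 for Raji (DDIT4, CHAC1, SLC38A2 and STC2), against 8.7%, and 1 for Ramos (CEBPB), against 2.47%. For CHAC1 the Raji change minus that of the other lines was -0.71 (limma adjusted p = 0.328). This test has a single residual degree of freedom, and its p-values are rough. On simulated data it recovered 0.45% of differences of 0.5 log2 and 13.55% of those of 1 log2, so most real differences would be missed.

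Other genes of the same pathways, taken from whole lists, had medians closer to that of all genes than the members as a whole. The median of the regulators (-0.12) was near those of the other cytosolic (-0.11) and the mitochondrial (-0.12) tRNA synthetase lists. Members and lists were chosen with earlier results of these data known, and the contrast was not tested. Among 15 eIF2 kinases and factors, 6 were lower and 3 higher in all 3 lines, against 19.6% and 15.5% of all genes, with a median of -0.08. EIF2S1, the alpha subunit of eIF2, was at -0.32, and PPP1R15B, which directs a phosphatase to it, at -0.27. Of 15 other targets of the stress response, 2 were lower and 3 higher, with a median of 0.02. TXNIP, an inhibitor of glucose uptake, was at 0.61 (limma adjusted p = 0.073) and CEBPG, a partner of ATF4, at -0.44 (limma adjusted p = 0.138). None of the genes on these lists had a limma adjusted p under 0.05.

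Of 22 other amino acid carriers, 3 were lower and 4 higher in all 3 lines, against 19.6% and 15.5% of all genes, with a median of -0.06. SLC7A1, the arginine and lysine carrier, was at -0.35, SLC1A1, a glutamate carrier, at -0.33 and SFXN1, the mitochondrial serine carrier, at -0.33. SLC43A2, a carrier of large neutral amino acids, was at 0.29. Among 24 other synthesis genes, 9 were lower and 4 higher, also with a median of -0.06. BCAT2, the mitochondrial branched-chain aminotransferase, was at 0.41, and BCAT1, its cytosolic counterpart, at -0.27. TYMS, which makes thymidylate, was at -0.32 and MAT2B, a regulator of S-adenosylmethionine synthesis, at -0.31. Of 12 other cytosolic tRNA synthetase genes, counted with AIMP1, a scaffold of the synthetase complex and not itself a synthetase, 6 including AIMP1 were lower and 0 higher, with a median of -0.11 and YARS1, for tyrosine, at -0.40 and IARS1, for isoleucine, at -0.32. The 15 mitochondrial tRNA synthetases also held 6 lower and 0 higher, with a median of -0.12 and VARS2, for valine, at -0.22 and PARS2, for proline, at -0.18.

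Chaperones and sensors of the endoplasmic reticulum, 22 genes, held 8 lower and 3 higher in all 3 lines, against 19.6% and 15.5% of all genes. Their median was -0.06, with SDF2L1 at -0.37 and SEL1L, of the degradation machinery, at -0.27. Among 21 genes of amino acid sensing by mTORC1, 2 were lower and 9 higher, with a median of 0.09. SESN1 was at 0.38, SAMTOR, a sensor of S-adenosylmethionine, at 0.46 and DEPDC5 at 0.25. Of 14 genes of glutathione and cystine use, 5 were lower and 3 higher, with a median of -0.03. GCLM, a subunit of the enzyme that starts glutathione synthesis, was at -0.48 (limma adjusted p = 0.127). GSR, which reduces oxidised glutathione, was at -0.39, and GPX1, which reduces peroxides, at 0.52.

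**Figure D3:**
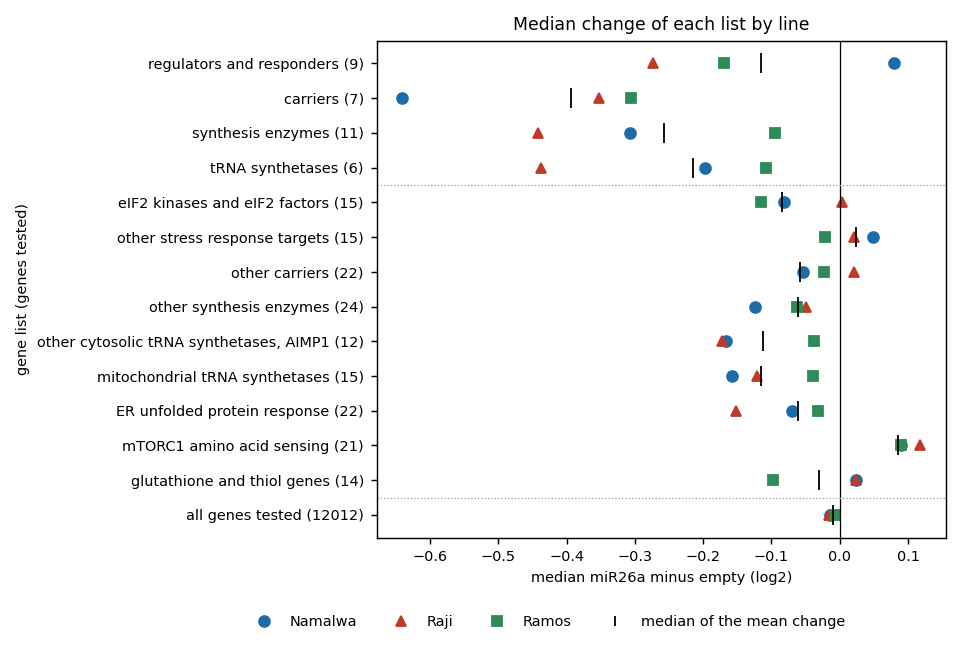
Median change in log2, miR26a minus empty, of the members by role, of the other pathway lists and of all tested genes, with symbols for each line and ticks for the median of the mean change. The carriers lie at -0.64 in Namalwa, and the mTORC1 sensing genes lie above 0 in each line.

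Levels differed more between lines than between groups for most members, as for most genes. The range over the 3 line means exceeded the mean group change for 30 of 34 members (88.2%), as it did for 92.2% of all genes. At an adjusted p under 0.05 (limma, group as a block), 25 members (73.5%) differed between some pair of lines, against 60.9% of genes. Comparisons of pairs share arrays, so they are not independent.

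Raji against Namalwa gave 17 called members, 9 higher and 8 lower, against 46.1% of genes (22.8% higher and 23.4% lower). Raji against Ramos gave 20, of which 4 were higher and 16 lower, against 50.5% of genes (26.1% higher and 24.4% lower). Namalwa against Ramos gave 15, with 1 higher and 14 lower, against 14.7% of genes (8.09% higher and 6.57% lower). The calls for 10 of 17, 10 of 20 and 3 of 15 members held with each of the 6 arrays left out in turn. Leaving out an array of a compared line leaves 1 array for that line. Calls over all genes then fell in each comparison, so a lost call is not particular to the members.

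Raji was lower than both other lines for 8 members, against 18.6% of genes: ATF5, CEBPB, TRIB3, SESN2, SLC7A5, ALDH18A1, CTH and STC2. ATF5 averaged 5.80 in Raji, against 7.56 (Namalwa) and 8.10 (Ramos), differences of -1.77 (SE 0.13, adjusted p = 3.85e-06) and -2.31 (SE 0.13, adjusted p = 5.07e-07). CEBPB had levels of 6.47 and 6.98 on the miR26a and empty arrays of Raji, against 8.11 and 8.91 in Namalwa and 8.99 and 9.01 in Ramos, differences of -1.79 (SE 0.18, adjusted p = 3.02e-05) and -2.27 (SE 0.18, adjusted p = 5.32e-06). CTH averaged 5.64 in Raji, against 6.96 (Namalwa) and 7.87 (Ramos), differences of -1.32 (SE 0.13, adjusted p = 2.9e-05) and -2.23 (SE 0.13, adjusted p = 6.96e-07). These are fits with adjusted p-values from limma. By the brightest probe set, every array of Raji lay below every array of the other lines for all 3 genes (2 arrays per line). So it was by the next brightest of ATF5 and of CTH, but not by the 2 dimmer ones of ATF5. In the brighter of these, Raji was at 5.37 and 5.31 (miR26a and empty) and Namalwa at 5.39 and 5.17. In the dimmest, Raji empty (5.26) lay above both Ramos arrays (5.25 and 5.15). The share of all genes separated in this way was not counted. STC2 was below the level minimum in Raji, so the size of its difference is not exact. Of the 8, all but SLC7A5 and ALDH18A1 kept both calls with each array left out in turn.

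Raji was higher than both other lines for 3 members, SLC7A11, SLC1A5 and PSPH, against 17.5% of genes. SLC7A11 averaged 7.89 in Raji, against 5.45 (Namalwa) and 6.70 (Ramos), a 5.43-fold difference from Namalwa (limma adjusted p = 5.9e-07). Only SLC7A11 of the 3 kept both calls with each array left out in turn.

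Ramos was higher than both other lines for 9 members, against 3.82% of genes: ATF4, ATF5, DDIT3, SESN2, SLC7A5, SLC3A2, PSAT1, CTH and STC2. Of these, CTH alone kept both calls with each array left out in turn: PSAT1 lost that against Raji and the other 7 lost that against Namalwa. DDIT3 and SLC3A2 also lost that against Raji. ATF4 averaged 11.09 in Ramos, and Raji and Namalwa differed from it by -0.84 and -0.51 (limma adjusted p = 0.000893 and 0.0416), the second reaching 0.293 with an array left out. PSAT1 was 9.43 in Namalwa, against 10.44 in Ramos, a 2.01-fold difference. PCK2 was the only member lower in Ramos than in both other lines, where 4.66% of genes were, and lost both calls with some array left out. Namalwa was lower than both for 6, DDIT4, SLC7A11, SLC1A5, PHGDH, PSAT1 and SARS1, against 2.49% of genes, and higher than both for 0, against 3.36%. For SARS1, Raji against Namalwa was 0.68 and turned to -0.048 with the mean of its probe sets. Only SLC7A11 of these 6 kept both calls with each array left out.

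**Figure D4:**
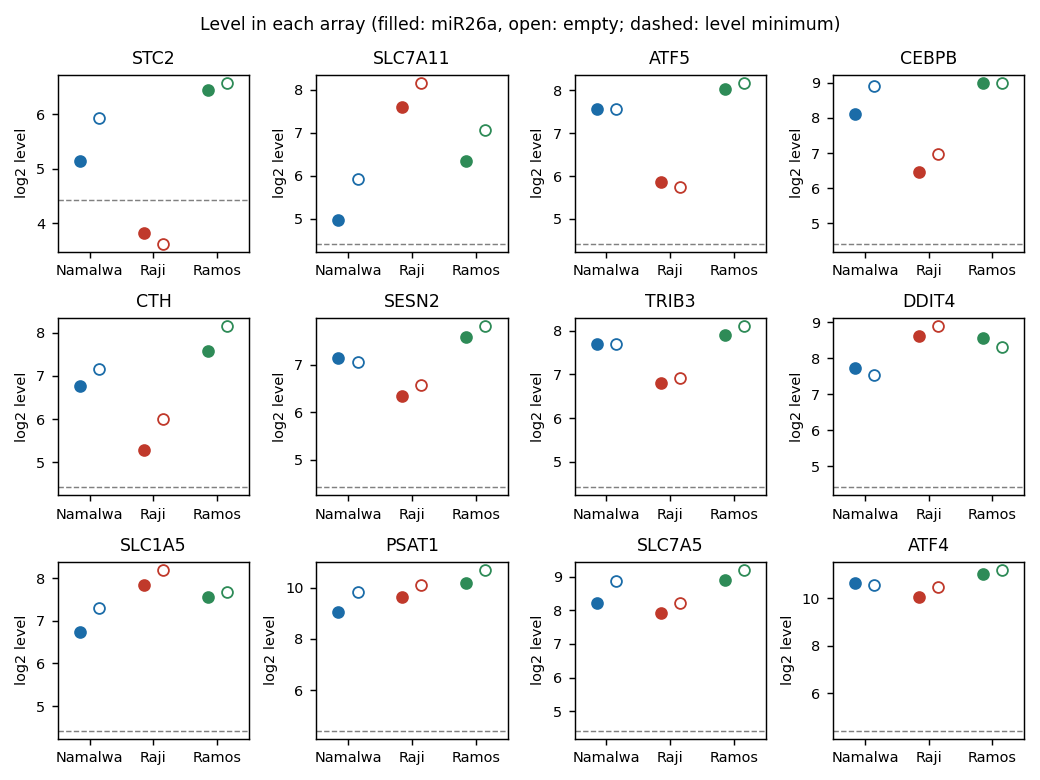
Log2 level on each array of the 12 tested members with the largest range over lines, with filled circles for miR26a, open circles for empty and a dashed line at the level minimum of 4.42. STC2 lies below the minimum on both Raji arrays.

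Different probe sets of a gene did not always move alike, above all in Namalwa. Among 19 members with at least 2 probe sets above the minimum, probe sets had opposite signs for 12 (63.2%) in Namalwa, 4 (21.1%) in Raji and 6 (31.6%) in Ramos, against 54.9%, 49.2% and 50.2% of 5750 genes. Within a gene the median range of change was 0.49 (Namalwa), 0.23 (Raji) and 0.12 (Ramos), against 0.34, 0.25 and 0.23 over all such genes. For SLC7A11 the 3 probe sets gave changes of -0.95, -0.25 and 0.62 in Namalwa, the last of them below the minimum on both arrays, in Raji of -0.56, -0.49 and -0.47, and in Ramos of -0.71, -0.55 and 0.14. For SHMT2 they were -0.12, 0.58 and -0.23 in Namalwa, and for ALDH18A1 they were -0.33 and 0.35. In Raji, whose arrays were alike in both controls, the median change over the members was -0.35, from 1 array per group. The part of the Namalwa empty array's 3′ to 5′ difference in the spread of probe sets or in the members' changes was not tested. Nor was that of the 18S rRNA levels.

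**Figure D5:**
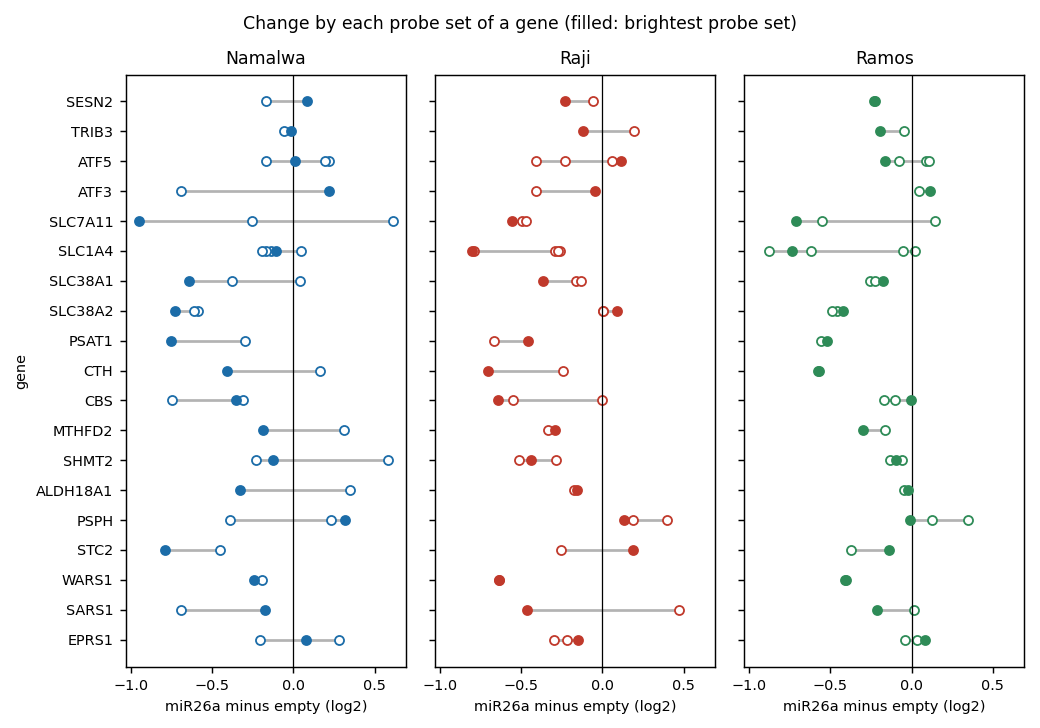
Change in log2 level, miR26a minus empty, by each probe set above the minimum of the 19 members with several, in a panel per line, with the brightest probe set filled. Probe sets of a gene spread most in Namalwa, where the median range is 0.49.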

How the data were processed

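Total RNA of 6 samples was hybridised to Affymetrix U133 Plus 2.0 arrays. The deposited values are in log2 units and were summarised per probe set by the authors with RMA (background correction, quantile normalisation, probe summary). BRB Array Tools is named for this in the labels' design text, and GCOS and RMA in the submitters' processing notes, without versions. RMA equalises the distributions of the arrays, so a change in the amount of all RNA cannot be seen. Nothing was normalised again for the results given, and precision is limited by the number of arrays.

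The annotation gave 1 symbol to 41091 of 54675 probe sets, several to 1801 and none to 11721, with 62 controls, and only those with 1 symbol named a gene. For 41037 the symbol was updated through Entrez IDs with a RefSeq gene table of GRCh38.p14, used for names only. Genes with a mean of at least 4.42 log2, the median over probe sets other than controls, were tested.

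The line was taken as the pair, since each line gave 1 array per group. Deviations from the group means correlated within a line at 0.861 (Namalwa), 0.950 (Raji) and 0.917 (Ramos). limma 3.58.1 in R 4.3.3 was fitted over all 12012 genes. The block was the line for the comparison of groups and the group for that of lines, with Benjamini-Hochberg adjustment and a threshold of 0.05. The fits were tested on simulated data, where the test of a line's response called more unchanged genes than its threshold allows. There the comparison of groups recovered 32.3% of changes of 0.5 log2 and 98.15% of those of 1 log2.

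The members and the other lists were chosen with earlier results of these data known. All 37 members are named, and of each other list up to 4 genes by smallest p, together with EZH2. MYC was added after its value was seen. Alternatives changed the level minimum, the probe set rule, the scaling, the prior, the block and the arrays included.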

Additional observations from a re-analysis of the deposited data

How the results depend on the processing

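Under the alternatives that kept all arrays, 64 summary values of the members stayed within 1.5 times of the count given or within the spread, and 2 moved. Between the groups 3 members, SLC7A11, PSAT1 and CTH, passed at a level minimum of the 75th percentile, where 0.699% of genes did, and 3, the same ones, with an intensity trend and robust prior, where 0.849% did. With no replicate block, where the pairing by line is dropped, 0 members passed, and 0 with the line as a random block, against 0% of genes in each setting. Leaving out a line gave 0 to 3 members, and leaving out an array gave 12 to 20 for Raji against Ramos and 7 to 17 for Namalwa against Ramos. The adjusted p from limma ranged from 0.00921 to 1.00 for SLC7A11, from 0.0285 to 1.00 for PSAT1 and from 0.0453 to 1.00 for CTH over these alternatives. The change itself ranged from -0.83 to -0.36 for SLC7A11, -0.77 to -0.09 for SLC1A4, -0.70 to -0.28 for CHAC1, -0.66 to -0.26 for CEBPB and -0.64 to -0.39 for CTH. The median change of the members stayed between -0.29 and -0.17. With arrays quantile normalised again, 15 members were lower in all 3 lines, against 18.2% of genes. Signs turned for small changes: with the mean of all probe sets ATF3 was at -0.058 and EPRS1 at -0.048. A called difference turned too: SARS1 in Raji against Namalwa was 0.68 by its brightest probe set and -0.048 with the mean of all. Centred arrays gave EPRS1 -0.00403, quantile normalisation gave ATF5 0.018, and plain probe sets gave PSPH -0.026. With a line left out, ATF5 was at -0.075 to 0.062, DDIT4 at -0.031 to 0.23, EPRS1 at -0.036 to 0.081, SLC3A2 at -0.26 to 0.043 and STC2 at -0.46 to 0.025. The cause was not tested.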
